A study of Homo sapiens with 21 samples.

Results

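The genes described here are 9 genes of gluconeogenesis and its control: the enzyme genes G6PC1, PCK1, PCK2, FBP1 and PC, the transporter gene SLC37A4, the coactivator gene PPARGC1A and the transcription factor genes FOXO1 and CREB3L3. They were chosen by symbol, with earlier results of these data known. They were matched to Ensembl identifiers, without the version number, among 37637 features of the count table. All 9 were present, and all 9 passed the filter on low counts that left 17468 features for testing. They were measured by sequencing of poly(A)-selected RNA in HepG2, an established line from a human liver cancer. Caffeine was given at 0, 0.01, 0.1, 1, 10, 100 or 1000 µM over 6 h. Each dose had 3 libraries, 21 in all, labelled as biological replicates. All groups, the control included, were switched from medium with serum to medium without it at the start of the exposure, so every group also carries 6 h without serum. The sample labels name caffeine at 0 µM for the control, while another text of the series names coumarin there. Since nothing says that replicates came from separate cultures, p-values measure the spread between these libraries, which may be partly technical.

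Gluconeogenesis is the pathway by which liver makes glucose from lactate, amino acids and glycerol during fasting. Pyruvate carboxylase (PC) and the phosphoenolpyruvate carboxykinases (cytosolic PCK1, mitochondrial PCK2) carry carbon from pyruvate to phosphoenolpyruvate, fructose bisphosphatase (FBP1) acts further along, and the catalytic subunit of glucose-6-phosphatase (G6PC1) releases free glucose after SLC37A4 has carried its substrate into the endoplasmic reticulum. Glucagon, through cyclic AMP (cAMP), raises transcription of the pathway by way of CREB and the coactivator PPARGC1A, insulin opposes this by keeping FOXO1 out of the nucleus, and CREB3L3 is a membrane-bound liver factor released on fasting and stress. Caffeine antagonises adenosine receptors and, at high concentrations, inhibits phosphodiesterases, the enzymes that break down cAMP.

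Total counts ran from 28043623 to 40827833 per library, and a count of 0 allowed up to 0.107 CPM in the shallowest library. CPM is the usual normalised read count, here relative to the library total after trimmed-mean (TMM) scaling. All 10 hepatocyte markers examined were detected in every library, with ALB at 4742 to 7141 CPM. Of 9 markers of other cell types in the table, PTPRC, VWF, CDH5, COL1A1, COL3A1 and STAB2 had between 0 and 9 counts in any library, while LYZ, CD68 and ACTA2 were present. The share of counts from genes of the mitochondrial genome ran from 4.96% (1 µM replicate 1) to 14.2% (1 µM replicate 3), and its relation to single genes is given beside their values. In bulk RNA, fewer cells that express a gene and less of its RNA per cell cannot be told apart.

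The promoters are shown for the genes whose levels changed most and for the first start of PC, which held motif matches. A CRE (the element bound by CREB), a forkhead element and a glucocorticoid half-site are the textbook inputs of this pathway. The promoter table used, from RefSeq (GRCh38.p14), was matched by symbol for 8 of the 9 genes, all but PCK1, with 12 start sites between them. Each line gives the 250 bases before a start, 5′ to 3′ on the gene's strand. Capitals mark letters that match one of 5 motifs searched on both strands: the full CRE TGACGTCA, its half-site TGACG (contained in the full site), a variant CRE TTACGTCA, the forkhead core TGTTTAC and the glucocorticoid half-site TGTTCT. The windows lie at chr17:42900549-42900798 (G6PC1, plus strand), chr4:24472906-24473155 and chr4:23881102-23881351 (PPARGC1A, minus strand), chr13:40666642-40666891 (FOXO1, minus strand) and chr11:66958384-66958633 (PC, minus strand).
G6PC1: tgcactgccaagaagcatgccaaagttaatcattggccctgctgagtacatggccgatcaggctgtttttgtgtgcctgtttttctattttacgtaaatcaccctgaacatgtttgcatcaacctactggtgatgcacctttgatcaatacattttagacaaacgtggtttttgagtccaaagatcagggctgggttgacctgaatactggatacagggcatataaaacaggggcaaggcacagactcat
PPARGC1A, first start: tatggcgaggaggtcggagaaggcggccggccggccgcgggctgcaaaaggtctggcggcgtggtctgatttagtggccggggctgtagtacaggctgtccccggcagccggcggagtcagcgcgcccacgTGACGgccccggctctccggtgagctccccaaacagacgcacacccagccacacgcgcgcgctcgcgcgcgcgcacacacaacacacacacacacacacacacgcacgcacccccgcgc
PPARGC1A, second start: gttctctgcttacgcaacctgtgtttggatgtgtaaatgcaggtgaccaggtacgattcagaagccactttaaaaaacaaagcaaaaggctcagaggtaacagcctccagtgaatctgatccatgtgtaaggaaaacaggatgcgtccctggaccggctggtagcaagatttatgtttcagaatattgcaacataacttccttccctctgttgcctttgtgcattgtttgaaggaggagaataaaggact
FOXO1: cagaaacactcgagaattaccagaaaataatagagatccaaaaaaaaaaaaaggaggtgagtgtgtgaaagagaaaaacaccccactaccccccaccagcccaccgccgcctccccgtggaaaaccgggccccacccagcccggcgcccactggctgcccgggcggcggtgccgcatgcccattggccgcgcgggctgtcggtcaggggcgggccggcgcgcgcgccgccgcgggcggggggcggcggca
PC, first start: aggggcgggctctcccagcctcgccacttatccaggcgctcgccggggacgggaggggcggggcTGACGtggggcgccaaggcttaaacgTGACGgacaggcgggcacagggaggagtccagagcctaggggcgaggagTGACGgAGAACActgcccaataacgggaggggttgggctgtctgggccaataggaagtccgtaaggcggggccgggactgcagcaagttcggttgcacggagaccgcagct

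In these windows the first PPARGC1A start had 1 half-site TGACG, 115 to 119 bases before the start, and PC had 3, the nearest 107 to 111 bases before it. PC also had 1 glucocorticoid half-site on the opposite strand, read above as AGAACA. None of the 5 motifs was found letter for letter in the other 10 windows, which include those of G6PC1, FOXO1 and SLC37A4. Other spellings of these elements were not searched, so a window without a match may still hold one. Over 35116 RefSeq windows of the same length, 21.2% held TGACG, 12.4% held TGTTCT, 2.98% held TGTTTAC, 1.65% held TGACGTCA and 0.37% held TTACGTCA. A match is a run of letters and no measurement of binding, and these windows leave out distal elements. The first PPARGC1A start lies outside the interval that GENCODE 29 gives for the gene. The second PPARGC1A window lies inside that interval, and neither window covers its 5′ end at 23904089.

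At 1000 µM, G6PC1, PPARGC1A and FOXO1 rose and SLC37A4 fell against 0 µM, while PCK1, PCK2, FBP1, PC and CREB3L3 did not pass the test. That is 4 of 9 genes at an adjusted p under 0.05, beside 41.2% of all features tested (20.6% higher and 20.6% lower), so the share is near the background. The median log2 fold change of the 9 genes was 0.28, against -0.03 over all features tested. The rises were about 1.9-fold to 2.3-fold and the fall of SLC37A4 left 0.702 of the control level.

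**Figure D1:**
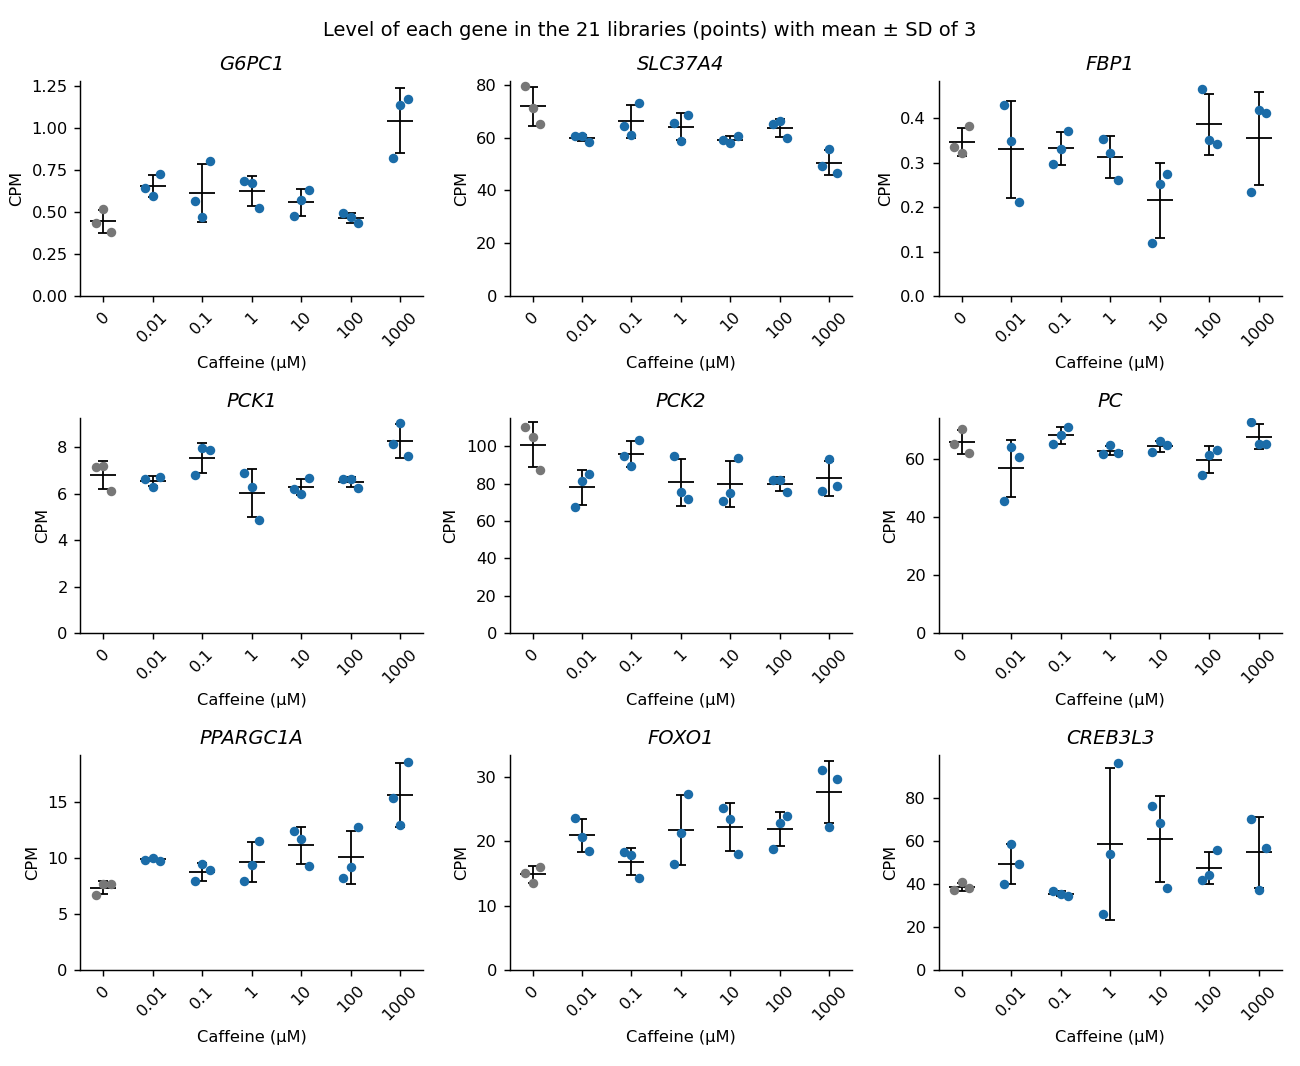
Level in CPM (vertical axes, linear from 0) of each gene at each caffeine dose (horizontal axis, µM, evenly spaced steps). Points are libraries (grey at 0 µM), the bar is the mean and the whiskers are 1 SD of 3 libraries. G6PC1, PPARGC1A and SLC37A4 have all 3 libraries at 1000 µM outside the range of the other 18, and CREB3L3 has its widest spread at 1 µM.

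Per kilobase of principal transcript, the mean at 0 µM was 0.143 CPM for G6PC1 and 30.6 CPM for SLC37A4. G6PC3, the ubiquitous form of the glucose-6-phosphatase catalytic subunit and no member of the 9, was at 52.9 CPM per kilobase. G6PC3 fell at 1000 µM against 0 µM (log2 fold change -0.44 ± 0.11, edgeR adjusted p 0.0040), and it was named after its value was seen. G6PC1 (ENSG00000131482, chr17:42900797-42913369, plus strand) read 0.435, 0.515 and 0.383 CPM at 0 µM, from 13, 16 and 12 counts. At 1000 µM it read 0.821, 1.13 and 1.17 CPM, from 28, 46 and 37 counts. All 3 of these libraries lay above every one of the other 18, the highest of which was 0.804 CPM, at 0.1 µM, as for 8.10% of all features tested. The means were 0.444 ± 0.0666 and 1.04 ± 0.192 CPM (SD, n = 3), a log2 fold change of 1.22 ± 0.24 (SE; edgeR adjusted p 0.00067). Over the 5 doses in between, G6PC1 ran from 0.435 to 0.804 CPM, its mean was lowest at 100 µM (0.465 CPM) among the treated groups, and no dose passed the test. These levels rest on 12 to 46 counts a library.

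SLC37A4 (ENSG00000137700, chr11:119024114-119030906, minus strand), which carries glucose-6-phosphate across the membrane of the endoplasmic reticulum to the phosphatase, moved the other way. It read 79.8, 71.2 and 65.0 CPM at 0 µM and 49.4, 55.7 and 46.5 CPM at 1000 µM. The 1000 µM libraries were the lowest 3 of 21, as for 5.26% of all features tested, and the next lowest was 58.0 CPM, at 10 µM. Lying below the 3 controls alone was common, at 27.2% of all features. The log2 fold change was -0.51 ± 0.09 (SE; edgeR adjusted p 0.00036). At 10 µM, where its libraries read 59.2, 58.0 and 60.6 CPM and again lay below all controls (as for 23.4% of all features), SLC37A4 fell by 0.28 ± 0.09 on the log2 scale (edgeR adjusted p 0.0388). SLC37A4 shares 544 exonic bases with TRAPPC4 on the opposite strand, and without a stated strand setting their reads cannot be told apart. TRAPPC4 also fell against 0 µM (log2 fold change -0.37, edgeR adjusted p 0.039). At 1000 µM against the pooled doses of 0.01, 0.1 and 1 µM, TRAPPC4 was at 0.04 and SLC37A4 at -0.33. The part of the shared bases in these values was not tested.

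FBP1 (ENSG00000165140, chr9:94603133-94640249, minus strand) was barely detected in these cells, with 4 to 17 counts a library, or 0.118 to 0.466 CPM. It read 0.334, 0.322 and 0.383 CPM at 0 µM and 0.235, 0.418 and 0.412 CPM at 1000 µM, and these ranges overlap. The log2 fold change was 0.04, with a 95% interval of -0.66 to 0.74. The lowest group mean was at 10 µM (0.215 CPM), where all 3 libraries lay below the controls with an edgeR adjusted p of 0.20. FBP1 shares 283 exonic bases with the antisense gene PCAT7, and with no strand setting stated their reads cannot be told apart there. PCAT7 itself rose at 1000 µM, from a mean of 2.98 to one of 4.01 CPM (log2 fold change 0.43, edgeR adjusted p 0.0091).

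At the entry into the pathway, none of PCK1, PCK2 and PC passed the test against 0 µM. PCK1 (ENSG00000124253, chr20:57561080-57568112, plus strand) read 7.15, 7.18 and 6.12 CPM at 0 µM and 8.15, 9.03 and 7.60 CPM at 1000 µM. All 3 top-dose libraries were above all controls, as for 25.9% of all features, with a log2 fold change of 0.28 ± 0.12 (SE) and an edgeR adjusted p of 0.069, which missed the threshold. DESeq2 (adjusted p 0.0483) and edgeR with RLE scaling (0.0497) put PCK1 just past it. An edgeR fit with the mitochondrial share as a covariate put PCK1 further past it (adjusted p 0.0126). Its lowest value was 4.87 CPM, in the 1 µM library with the highest mitochondrial share.

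PCK2 (ENSG00000100889, chr14:24094053-24110598, plus strand) was the most abundant of the 9 per kilobase at 0 µM, at 42.8 CPM. It read 110, 105 and 87.3 CPM at 0 µM and 76.3, 93.4 and 78.7 CPM at 1000 µM. One top-dose library lay within the control range, the log2 fold change was -0.28 ± 0.13 (SE) and the edgeR adjusted p was 0.0945. The value was much the same at 10 µM (-0.34) and 100 µM (-0.34), and the control mean of 101 CPM was the highest of the 7 group means.

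PC (ENSG00000173599, chr11:66848233-66958376, minus strand), the mitochondrial enzyme that makes oxaloacetate from pyruvate, read 65.1, 70.5 and 62.1 CPM at 0 µM and 72.7, 65.2 and 65.2 CPM at 1000 µM. These ranges overlap, and the log2 fold change was 0.04, with a 95% interval of -0.18 to 0.25. Its lowest library, 45.6 CPM, was replicate 1 at 0.01 µM. PC shares 621 exonic bases with LRFN4 on the opposite strand, which fell at 1000 µM (log2 fold change -0.63, edgeR adjusted p 0.0293).

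**Figure D2:**
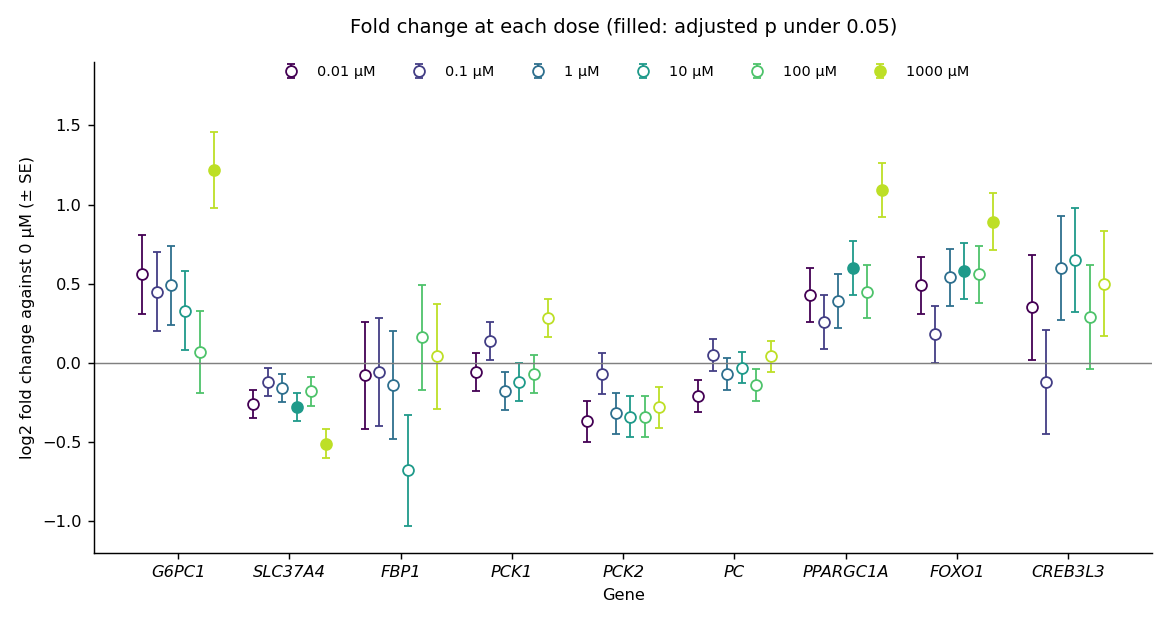
Log2 fold change of each gene at 6 caffeine doses against 0 µM (vertical axis) with its SE, from edgeR. Filled points have an adjusted p under 0.05: 4 genes at 1000 µM and 3 at 10 µM, and none at 0.01, 0.1, 1 or 100 µM.

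Among the regulators, the coactivator PPARGC1A (ENSG00000109819, chr4:23755041-23904089, minus strand) separated the control from all treated libraries. It read 6.69, 7.69 and 7.69 CPM at 0 µM, and all 18 treated libraries were above the highest of these, as for 2.28% of all features tested. At 1000 µM it read 15.4, 12.97 and 18.6 CPM, above each of the other 18 libraries. The means were 7.35 ± 0.578 and 15.7 ± 2.82 CPM (SD, n = 3), a log2 fold change of 1.09 ± 0.17 (SE; edgeR adjusted p 9.8e-05). At 10 µM it read 12.4, 11.7 and 9.29 CPM and rose by 0.60 ± 0.17 on the log2 scale (edgeR adjusted p 0.020). Values at 0.01, 0.1, 1 and 100 µM were between 0.26 and 0.45 and did not pass the test.

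FOXO1 (ENSG00000150907, chr13:40469953-40666597, minus strand), a forkhead factor that insulin signalling holds in the cytosol, read 15.1, 13.5 and 15.98 CPM at 0 µM. At 1000 µM it read 31.1, 22.2 and 29.6 CPM, all above the controls. The log2 fold change was 0.89 ± 0.18 (SE; edgeR adjusted p 0.00072). Of the 18 treated libraries, 17 lay above all controls, the exception being replicate 3 at 0.1 µM (14.4 CPM). FOXO1 also rose at 10 µM (25.1, 23.4 and 18.1 CPM; log2 fold change 0.58 ± 0.18, edgeR adjusted p 0.028). At 1000 µM its lowest library, 22.2 CPM, overlapped those at 0.01, 1, 10 and 100 µM. FOXO1 shares 269 exonic bases with LINC00598 on the same strand, whose means were 0.303 CPM in the controls and 0.388 CPM at the top dose.

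CREB3L3 (ENSG00000060566, chr19:4153601-4173054, plus strand) varied widely between replicates of a dose. It read 37.1, 40.96 and 38.4 CPM at 0 µM and 70.2, 37.5 and 57.0 CPM at 1000 µM, with 1 top-dose library inside the control range. At 1 µM the 3 libraries read 26.1, 54.1 and 96.3 CPM, which are both its lowest and its highest value of the series. The log2 fold change at 1000 µM was 0.50 ± 0.33 (SE; edgeR adjusted p 0.24), with a 95% interval of -0.20 to 1.20.

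The level of CREB3L3 moved with the mitochondrial share of the library. Over 21 libraries Pearson's r was 0.823 (permutation p 2e-05, adjusted over the 9 genes 0.000135) and Spearman's rho was 0.871 (permutation p 1e-05, adjusted 9e-05). Without the 2 libraries farthest from the median share r was 0.915, and over deviations from the dose means it was 0.786. PCK2 moved against the share, with an r of -0.768 (permutation p 3e-05, adjusted 0.000135), a rho of -0.847 (permutation p 2e-05, adjusted 9e-05), -0.74 without those libraries and -0.75 within doses. FOXO1 moved with it, with an r of 0.695 (permutation p 0.00039, adjusted 0.00117), a rho of 0.771 (permutation p 8e-05, adjusted 0.00024), 0.695 without those libraries and 0.821 within doses. For PPARGC1A r was 0.551 (permutation p 0.0101, adjusted 0.0199) and rho 0.636 (permutation p 0.0022, adjusted 0.00495), with 0.69 and 0.773 in the same checks. For PCK1 r was -0.547 (permutation p 0.011, adjusted 0.0199) and rho -0.482 (permutation p 0.0286, adjusted 0.0515). Without the 2 farthest libraries PCK1's r was -0.3, so the pooled relation rests in part on them, and within doses it was -0.711. For G6PC1, FBP1, PC and SLC37A4 no adjusted p was under 0.119. The permutations ran across doses, so their p-values do not set differences between doses apart. How many of all features have such a relation was not computed.

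**Figure D3:**
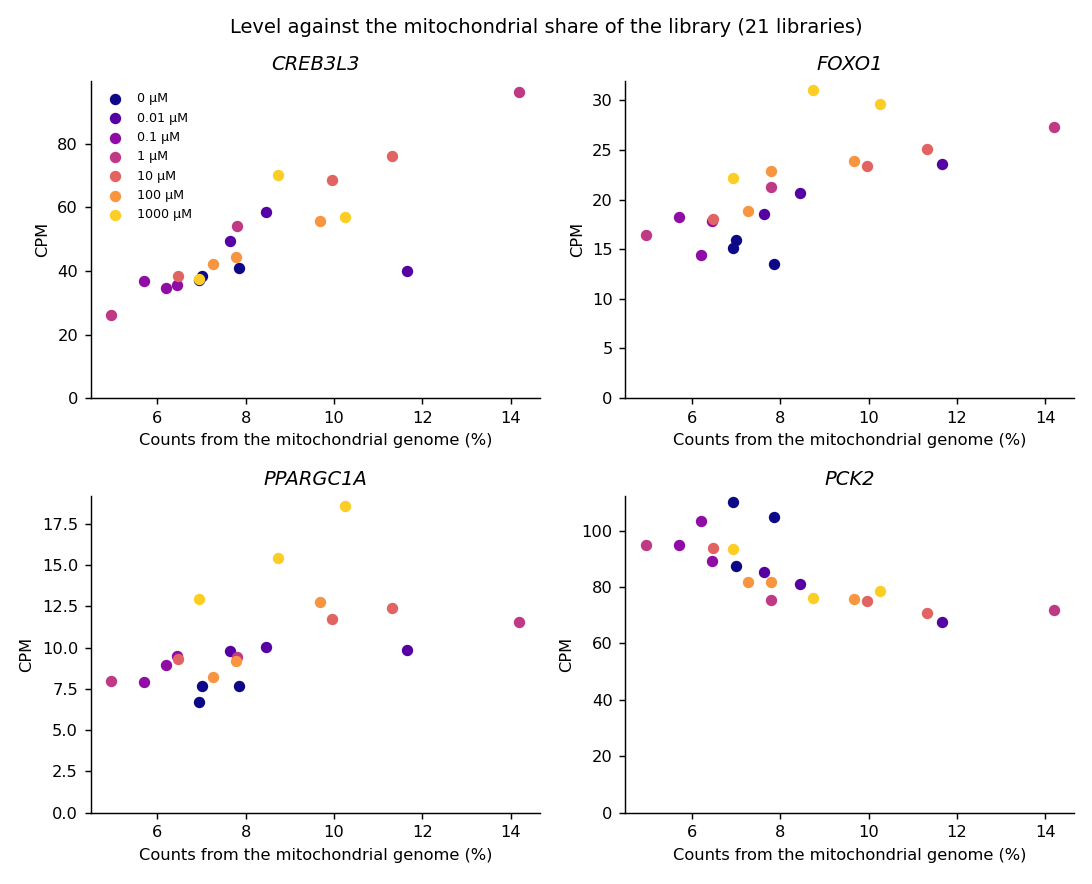
Level in CPM (vertical axes) against the percent of counts from the mitochondrial genome (horizontal axes, not starting at 0) for 4 genes in 21 libraries, coloured by caffeine dose. PCK2 is low where the share is high. CREB3L3 is mostly high there, but 0.01 µM replicate 1, at a share of 11.66%, has only 39.9 CPM. For PPARGC1A all 3 points at 1000 µM lie above the others, and for FOXO1 2 of them do.

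With the mitochondrial share as a covariate in the same edgeR model, the log2 fold changes at 1000 µM were 1.28 for G6PC1, 0.98 for PPARGC1A, 0.77 for FOXO1 and -0.51 for SLC37A4, all past the threshold (adjusted p 0.000433, 1.45e-05, 7.57e-05 and 0.000453). CREB3L3 went from 0.50 to 0.26 (adjusted p 0.348). At 10 µM PPARGC1A was at 0.45 (adjusted p 0.0224) and FOXO1 at 0.40 (adjusted p 0.0269), still past it, while SLC37A4 was at -0.28 (adjusted p 0.0529), the same fold as without the covariate.

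At 10 µM, 3 of the 9 genes passed the test, beside 22.0% of all features. No member did at 0.01 µM (4.95% of all features), 0.1 µM (0%), 1 µM (0%) or 100 µM (6.02%). At an unadjusted p under 0.05 the edgeR counts there were 4, 0, 3 and 3 of 9, beside 26.1%, 15.2%, 22.8% and 25.6% of all features, and DESeq2 called FOXO1 alone at 0.01, 1 and 100 µM and none at 0.1 µM. The calls at 10 µM depended on single libraries: without 0 µM replicate 1, 10 µM replicate 1 or 10 µM replicate 2, no gene passed, and without 0 µM replicate 2 PPARGC1A was the only one. Without 10 µM replicate 3 SLC37A4 also lost its call (adjusted p 0.0642). PCK2 was called without 0 µM replicate 3 (log2 fold change -0.43, adjusted p 0.0427) or 10 µM replicate 3 (-0.47, 0.0266). PPARGC1A averaged 11.2 CPM at 10 µM, while its 100 µM libraries, which overlapped these, averaged 10.1.

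All comparisons with 0 µM share the same 3 control libraries, so references without them were also used. The equal-weight mean of the 0.01, 0.1 and 1 µM groups against 0 µM gave no called gene among the 9 by edgeR (8.80% of all features). There 5 of 9 had an unadjusted p under 0.05, beside 27.6%, and DESeq2 called FOXO1. Against that pooled reference, 5 of the 9 passed at 1000 µM, beside 30.1% of all features. They were G6PC1 (log2 fold change 0.72, edgeR adjusted p 0.0059), PPARGC1A (0.73, 0.00041), FOXO1 (0.49, 0.0133), PCK1 (0.31, 0.0197) and SLC37A4 (-0.33, 0.0038). Without 1000 µM replicate 3, G6PC1 (adjusted p 0.0518) and FOXO1 (0.0846) lost the call in this comparison. FOXO1 also lost it without 1000 µM replicate 1 (0.0727), and PCK1 without 1000 µM replicate 2 (0.117).

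At 1000 µM against 100 µM, 3 of the 9 passed, beside 14.7% of all features: G6PC1 (1.16, edgeR adjusted p 0.0033), PPARGC1A (0.63, 0.0166) and SLC37A4 (-0.33, 0.022). FOXO1 (0.34, adjusted p 0.214) and PCK1 (0.35, adjusted p 0.056) did not pass. Only G6PC1 passed without 100 µM replicate 1, 100 µM replicate 2 or 1000 µM replicate 3, and SLC37A4 was also lost without 1000 µM replicate 1 (adjusted p 0.0694). None of the 9 passed at 100 µM against the pooled reference (0.469% of all features), where 0 had an unadjusted p under 0.05 (10.1% of all features) and DESeq2 also called 0.

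**Figure D4:**
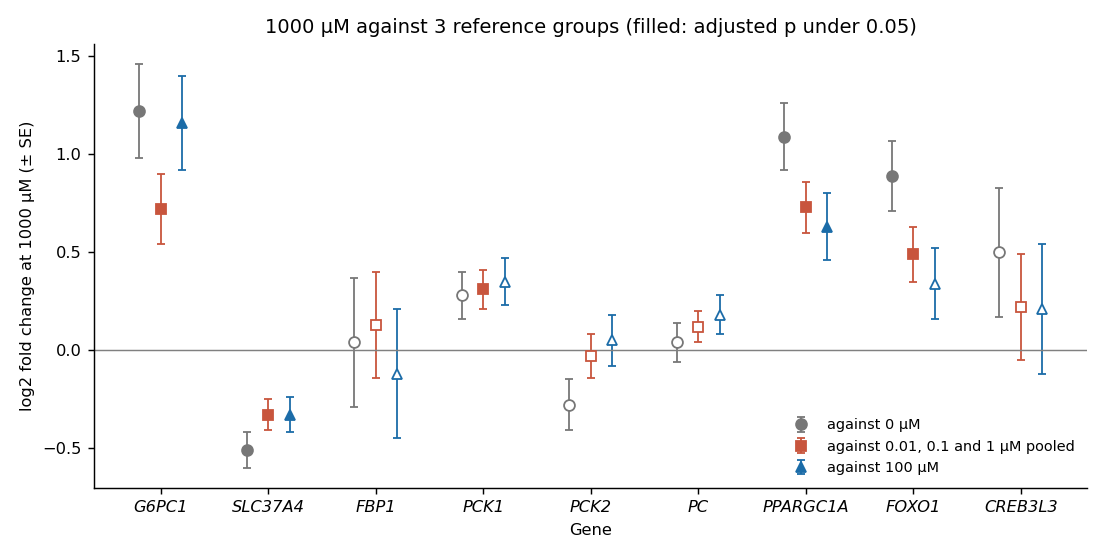
Log2 fold change at 1000 µM (vertical axis) with its SE for each gene against 0 µM (circles), the pooled 0.01, 0.1 and 1 µM groups (squares) and 100 µM (triangles), from edgeR; filled points have an adjusted p under 0.05. G6PC1, PPARGC1A and SLC37A4 are filled against all 3 references, FOXO1 against 2 and PCK1 against 1.

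In a test among the 7 groups, G6PC1, PPARGC1A, SLC37A4 and FOXO1 passed (edgeR adjusted p 0.0089, 0.0029, 0.0115 and 0.0152), 4 of 9 beside 28.1% of all features. Without 1000 µM replicate 3 PPARGC1A alone passed, SLC37A4 was lost without 1000 µM replicate 1 (adjusted p 0.0534) and FOXO1 without 0 µM replicate 2 (0.0529). Along the rank of the dose, from 0 to 6, PPARGC1A (slope 0.13 log2 units a step, edgeR adjusted p 0.0011), FOXO1 (0.11, 0.0030) and SLC37A4 (-0.05, 0.0140) passed, 3 of 9 beside 29.1%. SLC37A4 lost this call without 0 µM replicate 1, 1000 µM replicate 1 or 1000 µM replicate 3 (adjusted p 0.0513 to 0.0562). G6PC1, whose level was highest at the top dose and near the control at 100 µM, had a slope of 0.11 with an adjusted p of 0.068, and 0.0403 to 0.0475 without any 1 of the 100 µM libraries or 0.01 µM replicate 3. On the linear dose scale, where the top dose carries nearly all the weight, G6PC1 and PCK1 passed as well. In the 18 treated samples alone, without the controls, the slope along the rank passed for PPARGC1A only. FOXO1 then had an edgeR adjusted p of 0.0824.

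The rest of the pathway was counted in 5 lists at 1000 µM against 0 µM, where 41.2% of all features passed the test and their median log2 fold change was -0.03. Genes of substrate supply and the reversible steps, shared by glycolysis and gluconeogenesis, had a median of -0.41: of 26 tested, 13 fell, 2 rose and 11 did not pass. SLC25A10 and SLC25A11, mitochondrial carriers of dicarboxylates and oxoglutarate, fell by 1.06 ± 0.11 and 0.97 ± 0.12 on the log2 scale. MPC2, a subunit of the mitochondrial pyruvate carrier, fell from 104 ± 5.22 to 56.0 ± 11.5 CPM (SD, n = 3), and GPT, alanine aminotransferase, from 3.82 ± 0.545 to 2.06 ± 0.146 CPM. AQP3, a channel for water and glycerol, rose from 3.30 ± 0.416 to 13.5 ± 0.434 CPM, and GPT2 (log2 fold change 0.59), the mitochondrial alanine aminotransferase, was the other that rose; GPT2 was named after its value was seen.

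Of 14 tested genes that control the opposing, glycolytic direction, 2 rose and 5 fell, with a median of -0.14. This list mixes genes that promote that direction with genes that restrain it, such as GCKR, so its counts give no direction for glycolysis. PFKFB3, which makes the allosteric activator of phosphofructokinase, rose by 1.43 ± 0.13, and GCKR, the inhibitory partner of glucokinase, by 0.98 ± 0.11. PKLR, the liver pyruvate kinase, fell from 34.3 ± 1.67 to 21.7 ± 1.61 CPM, and PFKFB1, the liver form of the bifunctional enzyme, by 0.64 ± 0.17. PFKM, the muscle form of phosphofructokinase, fell by 0.62 ± 0.18 (edgeR adjusted p 0.0119), a call lost without 1000 µM replicate 1 or replicate 3 (adjusted p 0.0506 and 0.055). Without single libraries the number lower in this list was 2 or 3 for 5 of the 6 libraries.

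Among 23 tested genes of hormone and cAMP control, 12 rose and 1 fell, with a median of 0.34. SIK3, a kinase that restrains the CREB coactivators of the CRTC family, rose from 20.5 ± 3.04 to 41.7 ± 6.11 CPM. The catalytic subunits of AMP-activated kinase, PRKAA2 (0.99 ± 0.21) and PRKAA1 (0.74 ± 0.15), and the acetyltransferases EP300 (0.98 ± 0.21) and CREBBP (0.92 ± 0.23) also rose. EP300 also passed as higher than 0 µM at 0.01 µM (0.85), at 10 µM (1.13) and in the pooled low doses (0.78). CREBBP did so at 10 µM (1.01). Neither EP300 nor CREBBP passed at the top dose against the pooled low doses or against 100 µM. SIK3 (0.7), PRKAA2 (0.6) and PRKAA1 (0.47) did pass at the top dose against the pooled low doses. The list holds both genes that restrain the pathway and genes that promote it. Over all lists, 21 of the 25 named pathway genes passed at the top dose against the pooled low doses, and 17 against 100 µM.

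Of 22 tested transcription factors and cofactors, 6 rose and 5 fell, with a median of 0.13. NR3C1, the glucocorticoid receptor, rose from 21.5 ± 1.05 to 51.8 ± 1.85 CPM, and SIRT1, a deacetylase that acts on PPARGC1A and FOXO1, by 0.84 ± 0.16. FOXO3 rose by 0.57 ± 0.10, and ESRRA, a nuclear receptor that works with PPARGC1A, fell by 0.53 ± 0.15 (adjusted p 0.0612 without 1000 µM replicate 3). ESRRA also passed as lower than 0 µM at 0.01 µM (-0.60), 10 µM (-0.62) and 100 µM (-0.57). It did not pass at 1000 µM against the pooled reference or against 100 µM. NR4A1 read 18.1, 12.6 and 12.4 CPM at 1000 µM against 9.93, 9.40 and 9.47 at 0 µM, a rise of 0.58 ± 0.21 that was lost without any 1 of the 3 control libraries or without 1000 µM replicate 1 (adjusted p 0.0606 to 0.138). The number lower in this list was 1 to 3 without 1 of 4 libraries (0 µM replicates 1 and 2, 1000 µM replicates 1 and 3).

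Known targets of FOXO1 and CREB3L3, and the relatives of CREB3L3, split in direction: 4 of 13 tested rose and 6 fell, with a median of -0.23. IGFBP1, a secreted binding protein and a classic FOXO1 target, read 51.3, 39.0 and 40.0 CPM at 0 µM and 294, 306 and 300 CPM at 1000 µM, with no overlap. Its log2 fold change was 2.79 ± 0.17 (SE; edgeR adjusted p 4.6e-09). At 10 µM, a dose at which FOXO1 rose, IGFBP1 fell against 0 µM (log2 fold change -0.5, edgeR adjusted p 0.0377). HAMP, the iron hormone hepcidin and a CREB3L3 target, rose from 0.756 ± 0.117 to 4.52 ± 1.37 CPM, and BCL6, a repressor, by 0.81 ± 0.19. The lipid genes CIDEC (35.5 ± 2.10 to 15.1 ± 0.945 CPM) and APOA4 (23.0 ± 2.08 to 12.1 ± 1.30 CPM), listed as targets like HAMP, fell. So did the listed targets APOA5 (log2 fold change -0.74) and APOC2 (-0.67), which were named after their values were seen.

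**Figure D5:**
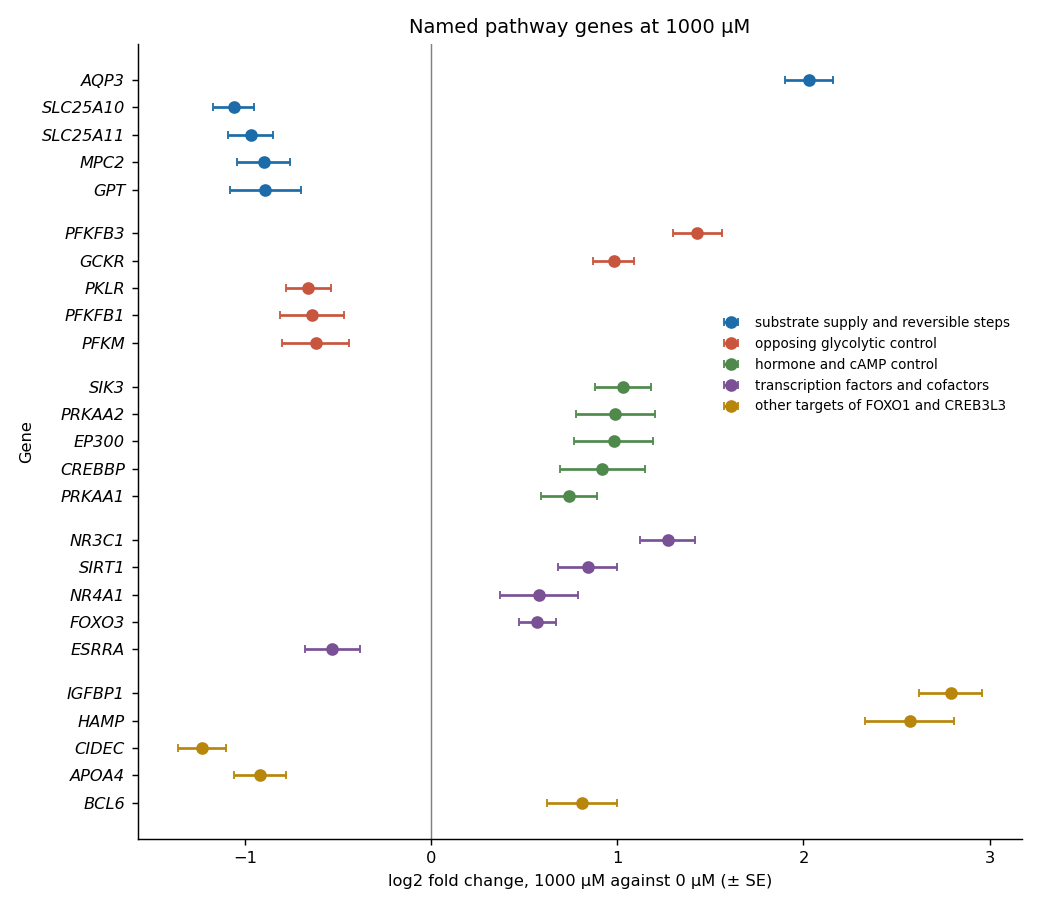
Log2 fold change at 1000 µM against 0 µM (horizontal axis) with its SE for 25 named genes of the 5 pathway lists, from edgeR, coloured by list. All have an adjusted p under 0.05, by the rule that named them; IGFBP1, HAMP and AQP3 have the highest values and CIDEC the lowest.

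The hepatocyte markers summed to 26850 to 29340 CPM at 0 µM and 25630 to 27530 CPM at 1000 µM, and 2 of 10 rose and 3 fell there, beside 20.6% of all features each way. The markers of other cell types summed to 1271 to 1491 and 959 to 1305 CPM, nearly all from LYZ, with 1 of 3 tested lower (ACTA2), beside the same 20.6%. Their part in the results above was not tested.

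The genes most like each of the 9 over all 21 libraries were found among 12429 named features with a mean of at least 1 CPM, by Pearson's r of log2 CPM, as a description without a test. The nearest to PPARGC1A were FAXDC2 (0.955), WAC (0.951) and SIK3 (0.943), and to FOXO1 ANKRD40 (0.98), PDCD6IP (0.958) and LOX (0.955). The nearest to SLC37A4 were NAA10 (0.949), TK1 (0.936) and MRPL27 (0.934), and to G6PC1 ASB4 (0.841), SLC38A2 (0.813) and AMMECR1L (0.809). For G6PC1 these values over deviations from the dose means were only 0.369, 0.178 and 0.264, whereas for FOXO1 they were 0.955, 0.921 and 0.931. The nearest to CREB3L3 were ATN1 (0.972), RELA (0.962) and UBQLN4 (0.962), and to PCK2 AAMP (0.97), ARSL (0.964) and RCC1L (0.955), with values of 0.956 to 0.98 within doses. The nearest to PCK1 was PIGG (0.906), to PC EEF2 (0.922) and to FBP1 LYRM2 (0.772). All points share their library, its depth and its mitochondrial share.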

How the data were processed

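RNA of 21 HepG2 libraries (7 caffeine doses, 3 each) was analysed from 1 table of read counts. The authors deposited whole-number counts per feature with no normalization. Per the submitters' processing notes HISAT2, DESeq2 and GRCh38 were used, with no role or version named. The counter, the annotation and any strand setting are not given in the sources used here. The table has 42 columns of per-sample values: the 21 named as in the labels were used and the other 21 were not. Coordinates, exon overlaps and lengths are from GENCODE 29 on GRCh38. The table's identifiers are not all of that release.

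Counts were tested with edgeR 4.0.16 (R 4.3.3): TMM scaling, filterByExpr at a minimum count of 10 and the quasi-likelihood test in 1 fit of 7 groups with 14 residual degrees of freedom. Of 17468 features tested, 1617 were unannotated. P-values were adjusted by Benjamini-Hochberg over all features, with a threshold of 0.05. The SE is the log2 fold change over √F, and level correlations used log2 CPM with a prior count of 2. Relations to the mitochondrial share used 100000 permutations, two-sided. Pairs of replicate libraries differed by a mean chi-square per feature of 5.45 to 208, so none looked like 1 library deposited again.

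The 9 genes and all lists were chosen with earlier results of these data known. From each pathway list, up to 5 genes past the threshold at 1000 µM with the largest fold change and a mean of at least 1 CPM were named, and for each of the 9 genes the 3 features most like it. The count tests were also run on simulated counts with 1 common spread for all features and no effect shared within a library. That setting is simpler than these libraries, so the run does not show how the tests perform on them. Alternatives were DESeq2 1.42.0, RLE scaling, other filters, a replicate block, the mitochondrial share as a covariate, an adjusted p under 0.01, fewer samples in the fit, a slope on the linear dose and leaving out each library. The alternatives for pathway lists and named pathway genes were chosen after seeing the data.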

Additional observations from a re-analysis of the deposited data

How the results depend on the processing

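At 1000 µM against 0 µM, G6PC1, PPARGC1A, SLC37A4 and FOXO1 passed the test under each of the 14 alternatives run, with 4 or 5 of the 9 genes called (4 to 4 when single libraries were left out). DESeq2 gave 1 call at 0.01, 1 and 100 µM and for the pooled low doses against 0 µM. Without a filter on low counts 1 gene was called at 100 µM and 2 among the 7 groups. The mitochondrial covariate gave 1 call at 100 µM and 1 for the pooled low doses. Fitting only the 6 samples compared gave 2 at 100 µM (PCK2 and FOXO1). An adjusted p under 0.01 left 0 at 10 µM, 3 at 1000 µM against the pooled low doses, 1 at 1000 µM against 100 µM and 2 among the 7 groups. The 18 treated samples alone gave 2 among the groups and 1 for the slope (PPARGC1A), and the linear dose gave 5. The causes of these moves were not tested.

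Leaving out single libraries gave ranges of 0 to 2 called genes at 1 µM, 0 to 4 at 10 µM, 0 to 1 for the pooled low doses, 3 to 5 at 1000 µM against the pooled low doses, 1 to 3 at 1000 µM against 100 µM, 1 to 6 among the 7 groups and 2 to 4 for the slope. Over all features the same fits gave 0 to 1264 calls at 1 µM, 1260 to 3707 at 10 µM, 0 to 2686, 3070 to 6403, 1302 to 2987, 3071 to 6219 and 3472 to 6365 in that order. The 2 at 1 µM (CREB3L3 and FOXO1) came without 1 µM replicate 1, and FOXO1 was also the 1 called in the pooled low doses then. Among the groups, 1 gene (PPARGC1A) passed without 1000 µM replicate 3 and 6 without 1 µM replicate 1, which added PCK1 and CREB3L3. These fits kept 1 estimate of the spread over all libraries left.

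Replicate numbers did not pair the libraries: of 63 same-numbered pairs, 11 had a correlation of deviations over 0.1 (-0.437 to 0.249), and 3 of 21 libraries correlated best with their own number. With the replicate number as a block, 0, 0, 0, 2, 0 and 4 of the 9 genes passed at the 6 rising doses against 0 µM.

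Counts over all features moved by more than 1.5 times. At 0.01 µM 864 features passed with edgeR, 2118 with DESeq2, 0 with the replicate block, 1 with the mitochondrial covariate and 2 in the 6 samples compared. At 100 µM the counts were 1051, 2011, 445, 1399 and 4015 in the same order, and at 1 µM 0, 1379, 0, 0 and 0. Of 350 fits of named pathway genes, 339 stayed past the threshold and none changed sign. In the pathway lists at 1000 µM, the number lower fell from 5 to 1 (glycolytic control) and from 5 to 2 (factors) without a filter, and from 5 to 2 in both at an adjusted p under 0.01. The mitochondrial covariate raised the number higher in glycolytic control from 2 to 4. For G6PC1 (12 to 46 counts a library) and FBP1 (4 to 17), DESeq2 gave no adjusted p in some comparisons.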
